A study of Mus musculus with 36 samples.

Results

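Oxidative phosphorylation is the mitochondrial process that passes electrons from NADH and succinate along complexes I to IV to oxygen and uses the resulting proton gradient to drive ATP synthase, complex V. Its complexes are built from both genomes of the cell: the mitochondrial DNA encodes a small set of core subunits, transcribed as long polycistronic RNAs inside the organelle, and nuclear genes encode all the other subunits, which are imported as proteins. In the brain most ATP comes from this pathway, and neurons spend much of it on restoring ion gradients after firing. The genes described here are the 13 mitochondrial protein-coding genes and 37 nuclear genes for subunits of complexes I to V and cytochrome c, 50 of the 55421 genes in the deposited count table. The list names genes of the pathway and sets no threshold on a measured value, and all 50 passed the filter on low counts.

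The study sequenced RNA from right hippocampal slices of 18 mice that differed in genotype, drug treatment and electrical stimulation. Wild-type C57BL/6 mice were compared with T41B mice, the Thy1-hAPPLond/Swe line 41 amyloid model, in which the Thy1 promoter drives neuronal expression of human APP carrying the Swedish and London mutations. Both genotypes were given BD10-2, a small molecule that partially activates the TrkB and TrkC neurotrophin receptors, or vehicle, by gavage for 3 months, starting at 13 months of age and ending at 16. Slices then received theta-burst stimulation (3 rounds of 10 bursts, each burst 4 stimuli at 100 Hz, spaced 200 ms apart) or a sham procedure without it, and were frozen at once. The 8 groups were vehicle-treated wild-type sham (4 mice) and stimulated (4), BD10-2-treated wild-type sham (3) and stimulated (3), vehicle-treated T41B sham (4) and stimulated (4), and BD10-2-treated T41B sham (5) and stimulated (5). A sham and a stimulated slice came from the same animal in 14 of the 18 mice. For each library 200 ng of total RNA was depleted of ribosomal RNA and processed with a strand-preserving kit, so both mitochondrial and nuclear transcripts were captured.

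Counts were deposited for 36 libraries. In 4 cases a pair of libraries carried the same mouse and stimulation label and was added, which left 32 slices. Single libraries held 11597555 to 28125842 counts (median 18082415), and the deepest added slice 49652855. Levels are given as CPM (counts scaled to a common library size) scaled between slices by the TMM method. Each of 17 comparisons was tested over 19478 genes with edgeR's quasi-likelihood test, and a gene was called at a Benjamini-Hochberg adjusted p under 0.05. The labels name separate mice within a group, so p-values measure the spread between mice. Each of the 8 library batches in the labels held mice of 1 treatment, so treatment and batch cannot be told apart. Stimulation was also tested with mouse as a block, which compares the slices within an animal, and those results are given where they changed a call or moved a count of calls by over 1.5 times. Because slices are bulk tissue, fewer cells of a type and less RNA per cell cannot be told apart in any of the values below.

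Several mitochondrial genes share their sequence with copies in the nuclear genome, and the deposited counts were divided between the gene and its copy. The 7 copies that matter here lie side by side on the minus strand of chromosome 1 between positions 24611535 and 24616197 (GRCm38), an insertion of mitochondrial DNA into the nuclear genome. Aligned over its whole length, the copy Gm28661 had 0 differences from mt-Co2, which encodes the copper-bearing subunit of complex IV that receives electrons from cytochrome c. Gm28437 matched mt-Co3 and Gm10925 matched mt-Atp6, also with 0 differences. The following stretches of 60 bases show the 3 situations that occur: a copy with no difference from the gene, a copy with a single difference, and a copy with a cluster of differences at its edge. Capitals mark the bases that differ within each pair, and every sequence is written 5′ to 3′ on the strand of the gene. The mt-Co2 stretch is chrM:7323-7382 and its copy is chr1:24615196-24615255. The mt-Nd3 stretch is chrM:9459-9518 and its copy is chr1:24613060-24613119. The mt-Co1 stretch is chrM:6381-6440 and its copy is chr1:24616138-24616197.
mt-Co2: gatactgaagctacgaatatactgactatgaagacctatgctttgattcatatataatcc
Gm28661: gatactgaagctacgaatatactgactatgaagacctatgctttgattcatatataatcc
mt-Nd3: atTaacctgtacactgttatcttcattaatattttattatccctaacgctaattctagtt
Gm28438: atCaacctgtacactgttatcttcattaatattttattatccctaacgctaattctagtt
mt-Co1: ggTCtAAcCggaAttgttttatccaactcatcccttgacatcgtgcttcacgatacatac
Gm29216: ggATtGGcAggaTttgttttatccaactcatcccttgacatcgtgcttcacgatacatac

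For 3 of the 5 copies with 0 differences, most counts sat on the copy. Of the counts of mt-Co2 and Gm28661 together, the copy held a median of 97.2% (84.8 to 99.1% over the 32 slices). Gm28437 held a median of 90.7% (81.3 to 100%) of its pair with mt-Co3, and Gm10925 held 76.9% (45.7 to 88.8%) of its pair with mt-Atp6. The other 2 such copies held little: Gm10222 a median of 0.744% (0 to 24.9%) of its pair with mt-Nd4l, and Gm28439, which covers 876 bases of mt-Nd4, 0.00355% (0 to 0.0258%). Gm28438 differs from mt-Nd3 by T3C, with positions counted from 1 at the first base of the gene, and held 18% (0 to 44.9%). Gm29216 covers 492 bases at the 3′ end of mt-Co1, with 6 differences at its edge (T1056A, C1057T, A1059G, A1060G, C1062A and A1066T), and held 11.8% (8.55 to 14.5%). The counts assigned to mt-Co3 itself ranged from 0.115 to 1400 CPM, whereas mt-Co3 and its copy together ranged from 2256 to 7565 CPM. Levels of single genes among these pairs therefore depend on how reads were divided, so mitochondrial levels and sums below include the copies except where deposited counts are named, as do all levels per kilobase, the spread of single genes over slices and the numbers of mice in which a single gene was higher or lower. Nuclear CPM by slice and nuclear sums do not include copies. Fold changes and tests are those of the deposited counts unless the copies are named. mt-Atp8 overlaps mt-Atp6 and mt-Nd4l overlaps mt-Nd4 in the mitochondrial genome, which makes the division of reads within those pairs uncertain too. Among nuclear members the only comparable case was Cycs, the electron carrier cytochrome c, whose near-identical copy Gm10053 held 50.6% of the shared counts. No other copy of a nuclear member held more than 9.93%.

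**Figure D1:**
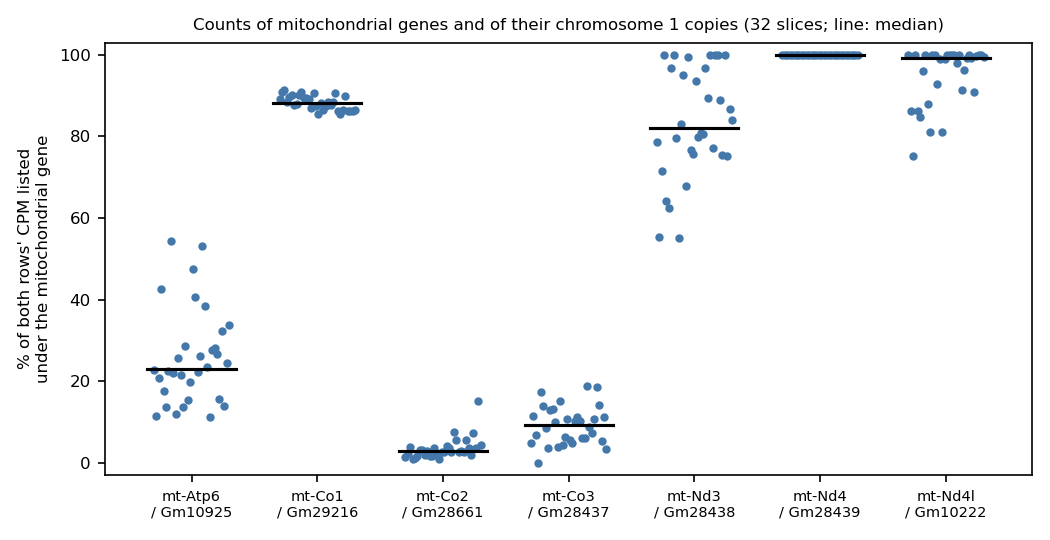
Percent of the summed CPM of a mitochondrial gene and its chromosome 1 copy that is listed under the mitochondrial gene, for 7 pairs; each point is 1 of the 32 slices and the line is the median. mt-Co2, mt-Co3 and mt-Atp6 kept medians of 2.78, 9.34 and 23.1%, and mt-Nd3 ran from 55.1 to 100%.

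Mitochondrial transcripts were far more abundant than nuclear ones. The 13 mitochondrial genes with their copies summed to 26599 to 76713 CPM per slice (median 44248), against 2711 to 4526 CPM (median 3267) for all 37 nuclear genes. Per kilobase of exon, the mitochondrial genes ranged from 373 CPM for mt-Nd6 to 10194 CPM for mt-Co1, with a median of 2955 CPM. mt-Nd6 encodes a membrane subunit of complex I and is the only member transcribed from the light strand, and mt-Co1 encodes the catalytic heme-copper subunit of complex IV. The nuclear genes ranged from 6.96 CPM per kilobase for Ndufb5, an accessory subunit of complex I, to 280 CPM per kilobase for Cox8a, a small subunit of complex IV, with a median of 26.6. These are means over the 32 slices, and on them the lowest mitochondrial member was above the highest nuclear member. In single slices mt-Atp8 went down to 127 and Cox8a up to 455 CPM per kilobase. The scale and the ranks on it rest on the exon length used for each gene, 4995 bases for Ndufb5 and 619 for Cox8a. Other lengths were not tried. Within the nuclear set, complex IV genes had the highest median (54.3 CPM per kilobase) and complex I genes the lowest among the complexes (20). The 2 mitochondrial ribosomal RNAs, which the depletion removes, summed to only 18.1 to 360 CPM.

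The mitochondrial sum also varied more between mice than the nuclear sum. Its coefficient of variation over the 32 slices was 27.5%, against 12.5% for the nuclear sum. The highest slice exceeded the lowest by 2.46 to 20.2 times for single mitochondrial genes, the upper end being mt-Atp8, a small subunit of ATP synthase, and by 1.38 to 2.44 times for single nuclear genes. The ratio of the mitochondrial to the nuclear sum ran from 8.25 to 26.8. Sham slices of mice Mouse1513, Mouse1510, Mouse1551, Mouse1563 and Mouse1571 had mitochondrial sums of 55244 to 61078 CPM, whereas those of the other paired mice did not exceed 48605 CPM. These 5 mice came from both genotypes and both treatments, and groups overlapped throughout.

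Stimulation could be compared within animals. Within a mouse, the mitochondrial sum was higher in the stimulated slice in 13 of 14 mice, by a mean log2 difference of 0.23 ± 0.19 (SD, n = 14 mice). The nuclear sum was lower in the stimulated slice in 11 of 14 mice, by a mean of -0.05 ± 0.15. The ratio of the sums was higher after stimulation in 12 of 14 mice (0.28 ± 0.23), the exceptions being Mouse1524 (-0.09) and Mouse1579 (-0.02).

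In vehicle-treated wild-type mice Mouse1509, Mouse1513, Mouse1522 and Mouse1524 the mitochondrial sum was 40604, 59170, 36509 and 38101 CPM in the sham slice and 60856, 67960, 40455 and 44154 CPM in the stimulated slice. The nuclear sum in the same mice was 3264, 2711, 3322 and 3662 CPM in sham and 3134, 2884, 3417 and 4526 CPM in stimulated slices. Every mitochondrial sum was higher on stimulation here, and the nuclear sum was higher in all but Mouse1509. In vehicle-treated T41B mice Mouse1510, Mouse1551, Mouse1553 and Mouse1579 the mitochondrial sum was 58664, 55244, 37382 and 36183 CPM in sham and 73622, 56515, 38005 and 35000 CPM in stimulated slices. Their nuclear sum was 3002, 3403, 4457 and 3455 CPM in sham and 2881, 3012, 3405 and 3382 CPM in stimulated slices. The nuclear sum was lower in all 4 T41B animals, and the mitochondrial sum differed by 0.33, 0.03, 0.02 and -0.05 (log2, same order of mice).

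Under BD10-2 the wild-type mice Mouse1565 and Mouse1571 had mitochondrial sums of 48605 and 61078 CPM in sham and 59841 and 67529 CPM in stimulated slices, with nuclear sums of 3142 and 2851 CPM against 2765 and 2761 CPM. The T41B mice Mouse1563, Mouse1564, Mouse1570 and Mouse1592 had mitochondrial sums of 55752, 37079, 26599 and 35458 CPM in sham and 76713, 44343, 37347 and 37825 CPM in stimulated slices. Nuclear sums in these T41B mice were 2949, 3370, 3224 and 3364 CPM against 2858, 3270, 3073 and 3338 CPM. All 6 paired BD10-2 mice therefore had a higher mitochondrial and a lower nuclear sum in the stimulated slice.

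**Figure D2:**
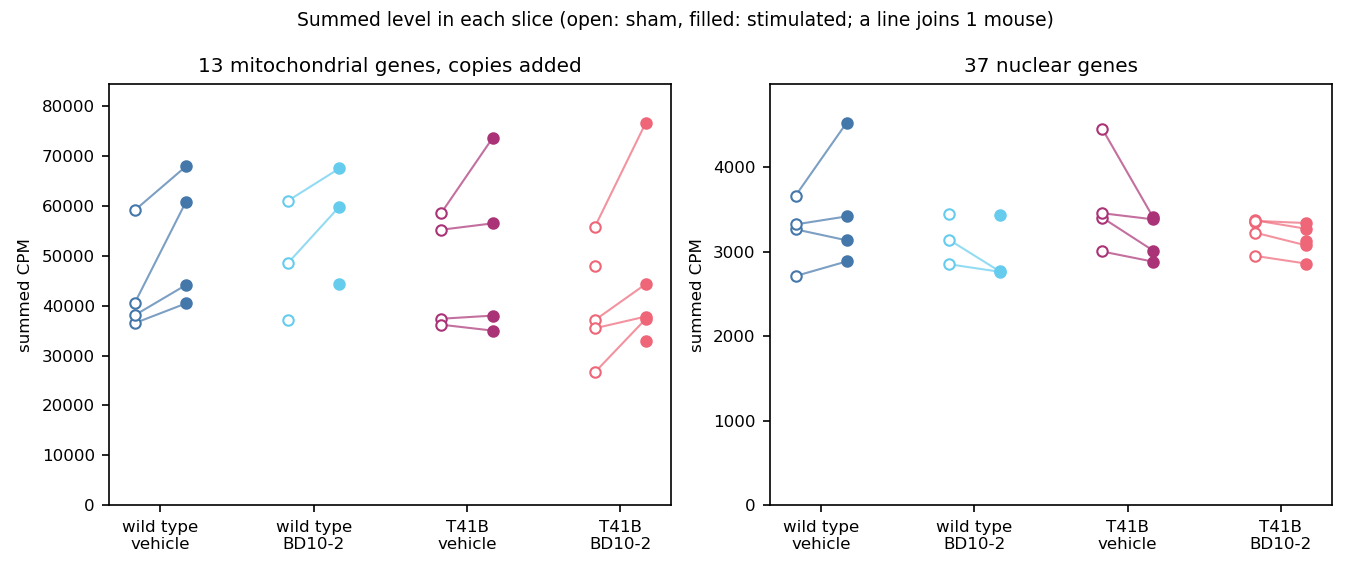
Summed CPM of the 13 mitochondrial genes with their copies and of the 37 nuclear genes in the sham and the stimulated slice of each mouse (vertical axes, from 0), by genotype and treatment; open points are sham, filled points stimulated, and lines join slices of the same mouse. Mitochondrial lines run upward in 13 of 14 mice and nuclear lines downward in 11 of 14.

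Among mitochondrial genes, the test on unpaired slices called 1 of 13 for the mean stimulation effect over the 4 genotype and treatment combinations, against 22.2% of all genes called higher, and the share of members (7.69%) was below that background. In the separate combinations it called 0 of 13 (backgrounds of 8.21, 11.7, 6.29 and 13.3% higher in vehicle wild-type, vehicle T41B, BD10-2 wild-type and BD10-2 T41B mice), with 0, 1, 0 and 1 genes at an unadjusted p under 0.05, and DESeq2 also called 0. The median log2 fold change of the 13 genes was nevertheless positive in each combination, at 0.30, 0.10, 0.21 and 0.17, and 0.19 for the mean, where the median of all genes was -0.03.

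With mouse as a block, 10 of the 13 mitochondrial genes rose for the mean effect, and 11 rose with the copies added, 84.6% of the members against 22.5% of all genes. The 2 that did not pass with copies added were mt-Nd3 and mt-Atp8. In vehicle-treated wild-type mice 6 of 13 rose with the block and 9 with the copies added, against a background of 11.6%. In BD10-2-treated T41B mice 5 rose, and 6 with the copies added, against 13.5%. In vehicle-treated T41B and BD10-2-treated wild-type mice 0 rose with the block, under backgrounds of 14.7 and 4.69%. The block had only 2 mice with both slices in BD10-2-treated wild type, against 4 in each other combination. The counts in single combinations depended on single mice: with copies added, the wild-type vehicle count was 0 without Mouse1509 and 1 without Mouse1524, and the T41B BD10-2 count was 1 without Mouse1570 and 2 without Mouse1563. The mean effect kept at least 7 of 13 called when any of the 14 mice was left out, the lowest count being the one without Mouse1565.

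The complex IV core subunit mt-Co1 (ENSMUSG00000064351, chrM:5328-6872) was higher after stimulation in all 14 mice with both slices. With its copies, mt-Co1 stood at 13715, 17517, 11562 and 13100 CPM in sham and 19740, 20364, 13711 and 14960 CPM in stimulated slices of the 4 vehicle-treated wild-type mice, in the order given above. It stood at 18499, 18340, 12585 and 12041 CPM in sham and 25290, 19636, 13031 and 12055 CPM in stimulated slices of the vehicle-treated T41B mice. Sham and stimulated slices overlapped in both genotypes. Under BD10-2, where the sham and stimulated groups share only some of their mice, mt-Co1 was 15388, 17678 and 12380 CPM in sham and 19521, 21956 and 15387 CPM in stimulated slices of wild-type mice. The T41B animals given BD10-2 had 15741, 17020, 12642, 9592 and 12100 CPM in sham and 24360, 15850, 13284, 11850 and 13095 CPM in stimulated slices. Here and below, the BD10-2 wild-type order is Mouse1565, Mouse1571 and Mouse1590 in sham slices. In stimulated slices it is Mouse1565, Mouse1571 and Mouse1586. The BD10-2 T41B order is Mouse1557, Mouse1563, Mouse1564, Mouse1570 and Mouse1592 in sham slices. In stimulated slices it is Mouse1563, Mouse1564, Mouse1570, Mouse1572 and Mouse1592. The mean log2 fold change was 0.26 without the block, with an adjusted p of 0.0744 by edgeR, and 0.28 (SE 0.05, adjusted p = 0.000154) with it. On the deposited counts the blocked value was 0.27 (SE 0.05, adjusted p = 0.000179).

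Its partner mt-Co2 (ENSMUSG00000064354, chrM:7013-7696) was the single mitochondrial gene called without the block, and that call was made on the small fraction of reads not assigned to Gm28661. The deposited counts of mt-Co2 were 63.4, 141, 150 and 36.4 CPM in sham and 71.4, 104, 137 and 160 CPM in stimulated slices of vehicle-treated wild-type mice. In vehicle-treated T41B mice mt-Co2 was 59.3, 165, 125 and 164 CPM in sham and 270, 162, 318 and 218 CPM in stimulated slices. The wild-type mice given BD10-2 had 98.3, 182 and 71.9 CPM in sham and 97.2, 254 and 93.9 CPM in stimulated slices. These deposited values overlapped between sham and stimulated slices. In the T41B mice given BD10-2, mt-Co2 was 144, 166, 116, 177 and 148 CPM in sham and 159, 378, 156, 580 and 190 CPM in stimulated slices. The log2 fold change for the mean effect was 0.62 (SE 0.22, edgeR adjusted p = 0.021). With the copy added it was 0.19 (adjusted p = 0.182), and with both the copy and the mouse block it was 0.21 (SE 0.04, adjusted p = 0.000802). The deposited counts lost the call with the block (0.51, adjusted p = 0.0667) and without Mouse1524 (0.51). The size of the mt-Co2 change, 0.62 or about 0.2, thus depended on the assignment of reads, whereas its direction did not.

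Of the complex I genes of the mitochondrial genome, all but mt-Nd3 were called higher for the mean effect with the block and the copies. mt-Nd1, a membrane subunit at the ubiquinone site, was higher in the stimulated slice of 14 of 14 mice and rose by 0.22 (SE 0.05, adjusted p = 0.00125) in the blocked fit with copies added. mt-Nd5, a proton-pumping subunit, rose by 0.23 (adjusted p = 0.00164) and mt-Nd4, another pump subunit, by 0.22 (adjusted p = 0.00308). The gene for the membrane subunit mt-Nd6, on the opposite strand, rose by 0.15 (adjusted p = 0.0313). The cytochrome b gene mt-Cytb, the mitochondrial member of complex III, rose by 0.21 (adjusted p = 0.00845), and mt-Atp6, the proton channel of ATP synthase, by 0.17 (adjusted p = 0.0316). The called values of the mean effect in this fit thus lay between 0.15 and 0.28, in complexes I, III, IV and V alike.

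**Figure D3:**
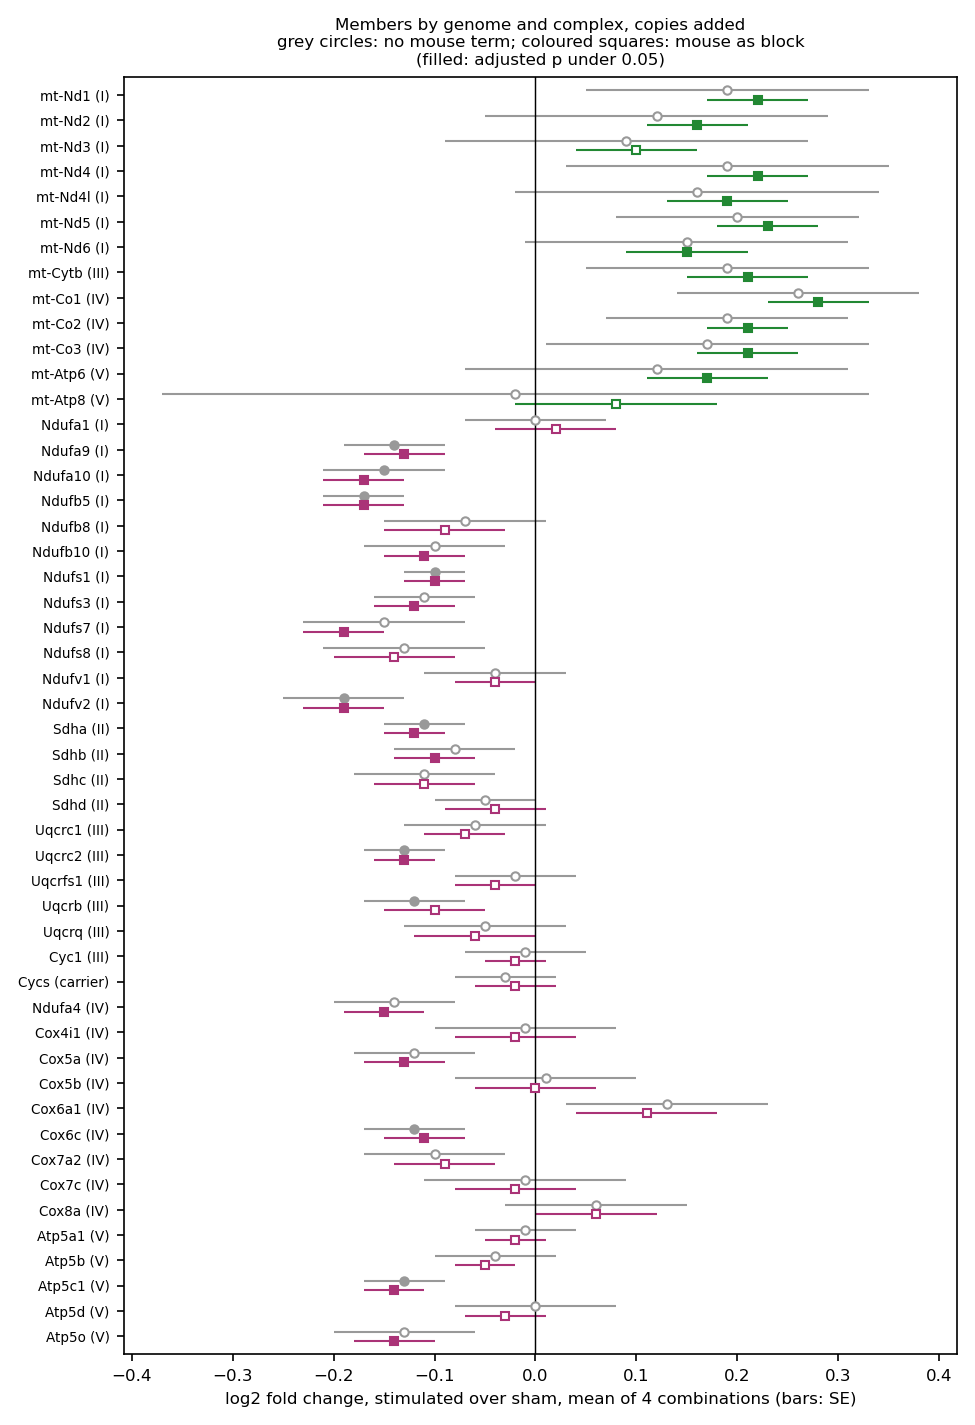
Log2 fold change, stimulated over sham, of all 50 genes for the mean effect with copies added, by genome and complex, with bars of 1 SE; grey circles are the unpaired fit, coloured squares the fit with mouse as a block, and filled symbols passed the test. With the block all 13 mitochondrial genes lie to the right of 0 and 11 are filled, and 16 nuclear genes are filled, all to the left.

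Nuclear genes had a lower median than mitochondrial genes in each combination, and without the block their calls in single combinations were all in vehicle-treated T41B mice. There all 37 nuclear members had a negative log2 fold change (median -0.23, against -0.05 over all genes, and -0.15 without Mouse1553). In that group 5 of 37 fell, and this share of 13.5% was close to the 9.83% of all genes called lower. With mouse as a block 19 of 37 fell (51.4% against 14.8%), and with batch as a covariate 14 fell (37.8% against 11.8%). The 19 comprised 9 complex I genes, Sdha and Sdhc of complex II, Uqcrc2 and Uqcrb of complex III, Ndufa4, Cox5a, Cox6c and Cox7a2 of complex IV, and Atp5c1 and Atp5o of complex V. Single animals mattered here too: the unblocked count was 1 without Mouse1551 and 3 without Mouse1553, and the blocked count with copies added was 6 and 7, respectively.

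The other combinations gave fewer calls. In vehicle-treated wild-type mice 0 of 37 nuclear members were called, 0 had an unadjusted p under 0.05 and DESeq2 called 0, against 12.3% of all genes called in either direction (4.1% lower) and 26.3% at an unadjusted p under 0.05. The median there was 0.10, and -0.00 when Mouse1524 was left out. That mouse had 36 of its 37 nuclear members higher in the stimulated slice. In BD10-2-treated wild-type mice the median was -0.10, with 0 called, 0 at an unadjusted p under 0.05 and 0 by DESeq2, against 8.87% of all genes called (2.58% lower) and 22.6% at an unadjusted p under 0.05. In BD10-2-treated T41B mice the median was -0.10, with 0 called by edgeR, 4 at an unadjusted p under 0.05 and 1 by DESeq2, against 22.9% of all genes called (9.52% lower) and 34.4% at an unadjusted p under 0.05. In that group the block called 2 of 37 (5.41%, against 10.4% of all genes lower), Ndufb10 at -0.21 and Ndufv2 at -0.24.

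For the mean over the combinations 10 of 37 nuclear members fell, which at 27% was close to the 24.6% of all genes called lower and is not a result about these genes. At an unadjusted p under 0.05 stood 53.4% of all genes. With the block 16 fell, 43.2% against 26.3%, and with batch as a covariate 14 fell, 37.8% against 26.2%. None was called higher in these fits. Ndufa10, Ndufb5, Ndufv2 and Sdha were lower in the stimulated slice of 13 of 14 mice. All 37 nuclear members were lower in the stimulated slices of mice Mouse1551, Mouse1553 and Mouse1565.

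Complex I supplied 12 of the 37 nuclear members, of which 2 were called in vehicle-treated T41B mice and 5 for the mean effect, beside 9.83 and 24.6% of all genes called lower. An iron-sulfur subunit of its NADH-oxidizing arm is encoded by Ndufv2 (ENSMUSG00000024099, chr17:66078638-66101559, minus strand). Ndufv2 stood at 42.4, 49.3, 62 and 50 CPM in sham and 36, 38.8, 44.8 and 39.8 CPM in stimulated slices of vehicle-treated T41B mice, every mouse lower on stimulation. It stood at 46.7, 38.3, 50.4 and 47.3 CPM in sham and 44.4, 38, 43.8 and 57.8 CPM in stimulated slices of vehicle-treated wild-type mice, where the groups overlapped. With BD10-2, Ndufv2 was 43.1, 40 and 47.7 CPM in sham and 39, 34 and 44.9 CPM in stimulated slices of wild-type mice. In the T41B animals with BD10-2 it was 47.9, 47.2, 45.9, 46.6 and 46.4 CPM in sham and 38.5, 38.5, 37.2, 35.9 and 43.4 CPM in stimulated slices. Ndufv2 fell by 0.35 on the log2 scale in vehicle-treated T41B mice (SE 0.11, edgeR adjusted p = 0.0242) and by 0.19 for the mean effect (SE 0.06, adjusted p = 0.00727). The mean effect of Ndufv2 was called in all 27 alternative analyses, and the T41B effect in 10 of 14.

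Ndufb5 (ENSMUSG00000027673, chr3:32736990-32751566, plus strand) encodes an accessory subunit of the membrane arm of complex I. Ndufb5 was 33.9, 39.9, 44.5 and 37.7 CPM in sham and 29.4, 32.1, 34.9 and 30.6 CPM in stimulated slices of vehicle-treated T41B mice. In vehicle-treated wild-type mice Ndufb5 was 36, 33.9, 36.6 and 38.6 CPM in sham and 34.1, 33.7, 34.7 and 41.4 CPM in stimulated slices. Each T41B mouse was lower on stimulation, and the highest wild-type stimulated slice was that of Mouse1524. The BD10-2 wild-type values were 36.9, 32.5 and 39.8 CPM in sham and 29.1, 32.2 and 34.8 CPM in stimulated slices. The BD10-2 T41B values were 38.3, 33.6, 35.7, 35.3 and 35.9 CPM in sham and 30.5, 28.7, 30.3, 31.5 and 35 CPM in stimulated slices. Ndufb5 fell by 0.30 in vehicle-treated T41B mice (SE 0.09, edgeR adjusted p = 0.0137) and by 0.17 for the mean effect (SE 0.04, adjusted p = 0.00201), the latter in all 27 alternatives.

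Ndufa9 (ENSMUSG00000000399, chr6:126821721-126849136, minus strand) and Ndufa10 (ENSMUSG00000026260, chr1:92439010-92473860, minus strand) encode further accessory subunits of complex I. Ndufa9 was 47, 39.8, 46.1 and 50.8 CPM in sham and 39.1, 39.1, 44.3 and 55.7 CPM in stimulated slices of vehicle-treated wild-type mice. In vehicle-treated T41B mice Ndufa9 was 39.6, 45.7, 52.3 and 46.1 CPM in sham and 35.3, 34.3, 41.7 and 41 CPM in stimulated slices. The wild-type groups overlapped, and each T41B mouse was lower on stimulation, although the T41B groups overlapped as well. Under BD10-2 Ndufa9 was 39.5, 38.3 and 46.7 CPM in sham and 36.2, 34.1 and 41.8 CPM in stimulated slices of wild-type mice. The T41B mice given BD10-2 had Ndufa9 at 42.4, 39.2, 39.5, 40.7 and 42.8 CPM in sham and 39.7, 36.9, 37.2, 36 and 41.7 CPM in stimulated slices. Ndufa9 fell by 0.14 for the mean effect (SE 0.05, edgeR adjusted p = 0.0298) and was lower in the stimulated slice of 12 of 14 mice.

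For Ndufa10 the vehicle-treated wild-type values were 78.4, 62.1, 76.3 and 80.1 CPM in sham and 65.2, 58.1, 72.8 and 88.4 CPM in stimulated slices. The vehicle-treated T41B values of Ndufa10 were 66.7, 68.7, 89.4 and 78.5 CPM in sham and 57.9, 55.6, 75.2 and 71.8 CPM in stimulated slices. The groups overlapped in both genotypes, although 7 of these 8 mice were lower on stimulation, all but Mouse1524. Ndufa10 in BD10-2-treated wild-type mice was 68.8, 59.4 and 75.9 CPM in sham and 56.4, 54.9 and 70.6 CPM in stimulated slices. Ndufa10 in BD10-2-treated T41B mice was 70.1, 63, 70.7, 73.5 and 71.3 CPM in sham and 53.9, 58.3, 66.6, 64.5 and 67.7 CPM in stimulated slices. Ndufa10 fell by 0.15 for the mean effect (SE 0.06, edgeR adjusted p = 0.0459), was called in 12 of 27 alternatives, and fell by 0.17 (SE 0.04, adjusted p = 0.00116) with the block. Ndufs1, the large iron-sulfur subunit of complex I, also fell for the mean effect, by 0.10 (adjusted p = 0.0143).

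In complex II, Sdha, the flavoprotein that oxidizes succinate, fell by 0.11 for the mean effect (SE 0.04, edgeR adjusted p = 0.0198). In complex III, 2 genes fell. Uqcrc2 (ENSMUSG00000030884, chr7:120635176-120659524, plus strand) encodes a core subunit of that complex. Uqcrc2 was 77.1, 85.1, 88 and 81.8 CPM in sham and 62.9, 63.6, 73.5 and 71.9 CPM in stimulated slices of vehicle-treated T41B mice. These groups did not overlap. In vehicle-treated wild-type mice Uqcrc2 was 76.6, 71.1, 86.3 and 83.2 CPM in sham and 78.6, 72.9, 85.3 and 89.7 CPM in stimulated slices. The BD10-2 values of Uqcrc2 were 75.4, 67.1 and 81.2 CPM in sham and 66.2, 60 and 79.2 CPM in stimulated slices of wild-type mice. For T41B mice with BD10-2, Uqcrc2 was 81.8, 76.6, 81.1, 73.1 and 77.2 CPM in sham and 77.1, 66.3, 72, 66.2 and 74 CPM in stimulated slices. The wild-type and BD10-2 groups overlapped, and stimulation was higher than sham in wild-type vehicle mice Mouse1509, Mouse1513 and Mouse1524 and in T41B BD10-2 Mouse1563. Uqcrc2 fell by 0.29 in vehicle-treated T41B mice (SE 0.09, edgeR adjusted p = 0.0157) and by 0.13 for the mean effect (SE 0.04, adjusted p = 0.0195).

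Uqcrb (ENSMUSG00000021520, chr13:66900617-66905378, minus strand) encodes a subunit that contacts the ubiquinone pocket of complex III. Uqcrb was 24.1, 21, 25.1 and 20.2 CPM in sham and 22.7, 22.9, 23.9 and 27.9 CPM in stimulated slices of vehicle-treated wild-type mice. The vehicle-treated T41B mice had Uqcrb at 21.9, 27.9, 27.8 and 25.2 CPM in sham and 20.9, 23.3, 20.5 and 20.7 CPM in stimulated slices. The 4 T41B mice were lower on stimulation, whereas wild-type mice Mouse1513 and Mouse1524 were higher. Uqcrb was 22.5, 24.1 and 26 CPM in sham and 21.2, 20.7 and 22.2 CPM in stimulated slices of BD10-2-treated wild-type mice. Uqcrb was 25.4, 24.7, 23.9, 20.5 and 25.7 CPM in sham and 25.1, 19.5, 22.2, 18 and 23 CPM in stimulated slices of BD10-2-treated T41B mice. It fell by 0.12 for the mean effect (SE 0.05, edgeR adjusted p = 0.0448), was called in 10 of 27 alternatives, and was not among the 16 genes called with the block.

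Complex IV contributed Cox6c (ENSMUSG00000014313, chr15:35925886-35938246, minus strand), a small accessory subunit. Cox6c was 85.6, 84.6, 112 and 93 CPM in sham and 78.6, 78.9, 72.1 and 79.4 CPM in stimulated slices of vehicle-treated T41B mice, and Mouse1553 had both the highest sham and the lowest stimulated value. In vehicle-treated wild-type mice Cox6c was 85.9, 83.4, 90.9 and 101 CPM in sham and 84.8, 80.2, 87 and 107 CPM in stimulated slices. The wild-type groups overlapped. Under BD10-2 Cox6c was 90.8, 78 and 91.2 CPM in sham and 76.4, 79.2 and 90.6 CPM in stimulated slices of wild-type mice. Cox6c in T41B mice under BD10-2 was 94.6, 86, 91.7, 84.6 and 90.6 CPM in sham and 88.2, 82.2, 80.6, 75.7 and 87.6 CPM in stimulated slices. Cox6c fell by 0.28 in vehicle-treated T41B mice (SE 0.09, edgeR adjusted p = 0.0269), but by 0.15 without Mouse1553, which was not called (adjusted p = 0.302). Not every complex IV gene was negative: Cox6a1 was higher in the stimulated slice of 11 of 14 mice and Cox8a of 10 of 14, with log2 fold changes of 0.13 and 0.06 that did not pass the test (adjusted p = 0.305 and 0.566).

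In complex V, Atp5c1 (ENSMUSG00000025781, chr2:10056016-10080510, minus strand) encodes the gamma subunit, the rotating shaft of ATP synthase. Atp5c1 was 79.3, 93.1, 100 and 88.9 CPM in sham and 68.7, 68.2, 76.7 and 74.3 CPM in stimulated slices of vehicle-treated T41B mice, without overlap. It was 82.2, 72.4, 92.5 and 85.9 CPM in sham and 80.2, 75.3, 87.3 and 104 CPM in stimulated slices of vehicle-treated wild-type mice, where the highest stimulated slice was again that of Mouse1524. With BD10-2, Atp5c1 was 82.3, 77.2 and 84.5 CPM in sham and 73.1, 68.5 and 82.6 CPM in stimulated slices of wild-type mice. With BD10-2 in T41B mice Atp5c1 was 87.9, 82.4, 82.5, 78 and 82.8 CPM in sham and 77.2, 72.3, 73.3, 70.3 and 79.4 CPM in stimulated slices. Atp5c1 fell by 0.33 in vehicle-treated T41B mice (SE 0.09, edgeR adjusted p = 0.00703) and by 0.14 for the mean effect (SE 0.04, adjusted p = 0.0131). Leaving out Mouse1551 took the T41B value to -0.29 (adjusted p = 0.0638), and 13 of its 14 alternatives kept the call.

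**Figure D4:**
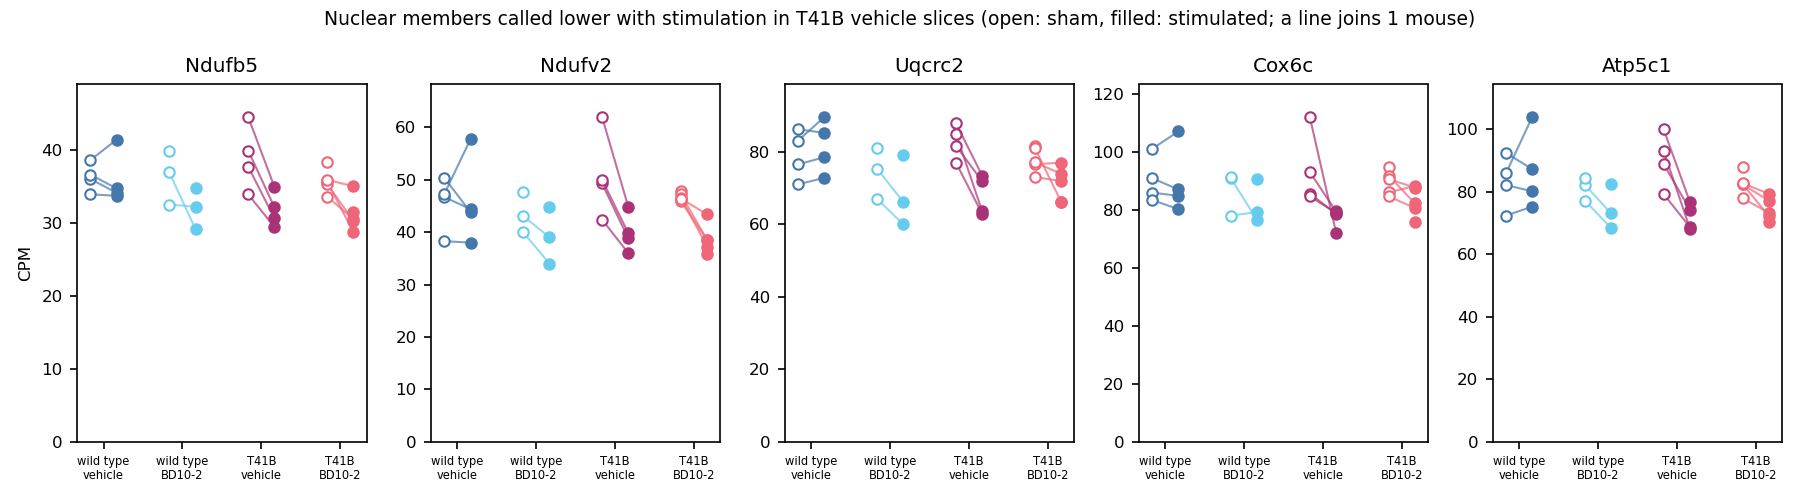
CPM in each slice (vertical axes, from 0) of the 5 nuclear genes called in vehicle-treated T41B mice, by genotype and treatment; open points are sham, filled points stimulated, and lines join slices of the same mouse. In vehicle-treated T41B mice every line runs downward.

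Whether stimulation acted differently by genotype was tested as an interaction. Under vehicle, all 37 nuclear members had a negative genotype-by-stimulation term (median -0.33, against -0.03 over all genes, and -0.20 without Mouse1553), and 11 of 37 had an unadjusted p under 0.05, beside 8.64% of all genes, but 0 passed adjustment by edgeR or DESeq2, as was true of 0% of all genes. The lowest unadjusted p belonged to Atp5c1 (-0.39, SE 0.12, adjusted p = 0.43). With mouse as a block 25 of 37 had an unadjusted p under 0.05, beside 15.7% of all genes, and again 0 passed adjustment (Atp5c1 -0.38, adjusted p = 0.15), where 0.0154% of all genes did. For the 13 mitochondrial genes the median of this term was -0.20, with 0 called and 0 at an unadjusted p under 0.05. Under BD10-2 the medians were -0.01 and 0.02, with 0 called and 0 at an unadjusted p under 0.05 in either genome, beside 4.34% of all genes. The drug-by-stimulation term in T41B mice had a median of 0.12 for nuclear genes, positive in 36 of 37, and 0.04 for mitochondrial genes. In wild-type mice the drug-by-stimulation medians were -0.18 and -0.14. Over the alternative analyses the mitochondrial medians changed sign, running from -0.07 to 0.24 in T41B and from -0.34 to 0.05 in wild-type mice. Neither interaction with the drug had a member called by edgeR or DESeq2, or one at an unadjusted p under 0.05, and 0% of all genes were called, with 1.73% in wild-type and 2.7% in T41B slices at an unadjusted p under 0.05. A difference in the response between genotypes or treatments was therefore not detected for any single member.

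The T41B genotype itself was compared with wild type within each treatment and stimulation state, and no member of either genome was called by edgeR or DESeq2 in any of the 4 comparisons. Of all genes, 6.24% were called in sham vehicle (5% higher and 1.24% lower), 5.79% in stimulated vehicle (4.74 and 1.05%), 5.45% in sham BD10-2 (4.31 and 1.14%) and 10.6% in stimulated BD10-2 slices (8.19 and 2.36%). Unadjusted p-values under 0.05 were reached by 6, 9, 0 and 0 of the 37 nuclear members, respectively, and by 0, 1, 0 and 1 of the 13 mitochondrial ones, beside 21.4, 17.4, 18.9 and 23.1% of all genes. In sham vehicle slices the nuclear median was 0.14 (0.05 without Mouse1553), from Cox7c, a small complex IV subunit, at 0.42 to Ndufs1 at -0.07. The mitochondrial median there was 0.11 (-0.02 without Mouse1510 and 0.38 with batch as a covariate), from mt-Atp6 at 0.42 to mt-Atp8 at -0.33. In stimulated vehicle slices the nuclear median was -0.16 (-0.01 without Mouse1524), with Cox5a, a subunit of complex IV, lowest at -0.32 and Uqcrq, a small complex III subunit, highest at 0.04. Mitochondrial values ran from mt-Atp8 at -1.15 to mt-Co2 at 1.04 with a median of -0.09, and with the copies added mt-Co2 was at -0.01 and the median at -0.13. Over the alternative analyses this mitochondrial median ran from -0.33 to 0.22.

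With BD10-2 the mitochondrial median was lower in T41B than in wild-type slices, at -0.27 in sham and -0.32 in stimulated slices (-0.08 and -0.18 without Mouse1571), and the nuclear medians were 0.05 and 0.04. The extremes were mt-Co2 at 0.35 and mt-Atp8 at -1.32 in sham, and mt-Co2 at 0.98 and mt-Atp8 at -0.54 in stimulated slices. With the copies added, mt-Co2 was at -0.17 and -0.23 in these comparisons and the medians were -0.35 and -0.36. Among nuclear members, Uqcrq at 0.23 and Cycs at -0.26 bounded the sham values, and Sdhc, a membrane anchor of complex II, at 0.23 and Ndufs1 at -0.11 the stimulated ones. As group means with SD, the mitochondrial sum in sham slices was 48947 ± 11963 CPM in 3 wild-type mice and 40587 ± 11401 CPM in 5 T41B mice under BD10-2. Under vehicle it was 43596 ± 10519 CPM in 4 wild-type and 46868 ± 11740 CPM in 4 T41B mice. These differences were smaller than the SD of a single group.

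Of the 8 batches, 5 held both genotypes. With batch as a covariate, 14 of 37 nuclear members were lower in T41B stimulated vehicle slices, 37.8% against 0.842% of all genes, with a nuclear median of -0.35. Examples were Atp5c1 (-0.44, SE 0.08, edgeR adjusted p = 0.00149), Uqcrc2 (-0.40, adjusted p = 0.00536) and Ndufa4, a complex IV subunit (-0.46, adjusted p = 0.00702). Under vehicle, however, only batches A and C held both genotypes, with 1 mouse of each in either. In batch A the nuclear sum of the stimulated slice was 3417 CPM in wild-type Mouse1522 and 2881 CPM in T41B Mouse1510. In batch C it was 4526 CPM in wild-type Mouse1524 and 3382 CPM in T41B Mouse1579. The value of 4526 CPM was the highest nuclear sum of all 32 slices, and only these 4 mice compare the genotypes within a batch under vehicle. The batch fit was not repeated without Mouse1524. In sham vehicle slices the batch covariate moved the nuclear median from 0.14 to -0.07. With batch as a covariate the mitochondrial medians under BD10-2 were -0.59 in both sham and stimulated slices, with 5 of 13 genes at an unadjusted p under 0.05 and 0 called in each.

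BD10-2 treatment was compared with vehicle within each genotype and stimulation state, and 0 of 50 members were called by edgeR or DESeq2 in any of the 4 comparisons, as were 0% of all genes. In stimulated wild-type slices all 37 nuclear members were lower with BD10-2 (median -0.22), from Ndufs1 at -0.09 to Cox5a at -0.35, and 8 had an unadjusted p under 0.05, beside 5.61% of all genes. The median of all genes was -0.01. Without Mouse1524, whose stimulated slice had the highest nuclear sum of all slices, the nuclear median was -0.10. In the other 3 comparisons 0 nuclear members had an unadjusted p under 0.05, beside 1.92, 2.21 and 3.9% of all genes in sham wild-type, sham T41B and stimulated T41B slices. The nuclear medians were -0.04 in sham wild-type, -0.13 in sham T41B and -0.02 in stimulated T41B slices. The nuclear extremes were Cycs at 0.14 and Ndufa9 at -0.15, Ndufs1 at 0.00 and Cox7c at -0.34, and Sdhc at 0.18 and Cox7c at -0.08, in that order. Mitochondrial medians were 0.22 and 0.09 in sham and stimulated wild-type slices and -0.16 and -0.15 in sham and stimulated T41B slices. Leaving out single mice moved these medians to between -0.01 (without Mouse1571) and 0.47 (without Mouse1513), between -0.06 (without Mouse1571) and 0.29 (without Mouse1586), between -0.32 (without Mouse1563) and -0.03 (without Mouse1510), and between -0.45 (without Mouse1563) and 0.07 (without Mouse1510), respectively. The mitochondrial extremes were mt-Co3 at 1.10 and mt-Atp6 at 0.05 in sham wild-type slices and mt-Co2 at 0.32 and mt-Atp8 at -0.56 in stimulated wild-type slices. In T41B slices they were mt-Co3 at 0.38 and mt-Atp6 at -0.63 in sham, and mt-Co2 at 0.27 and mt-Atp6 at -0.63 in stimulated slices. With 0, 0, 1 and 1 of 13 mitochondrial genes at an unadjusted p under 0.05 in these 4 comparisons, and each treatment in batches of its own, no difference was called and drug and batch cannot be told apart. With the copies added, mt-Co3 was at 0.22 in sham wild-type slices and mt-Atp6 at -0.25 and -0.12 in sham and stimulated T41B slices. On simulated counts, the same test in the sham wild-type treatment comparison recovered 0% of genes changed by 0.3 on the log2 scale, 18.5% of those changed by 0.5 and 64.5% of those changed by 1. The 200 changed genes were drawn at random from the 19478 tested, not from the members.

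**Figure D5:**
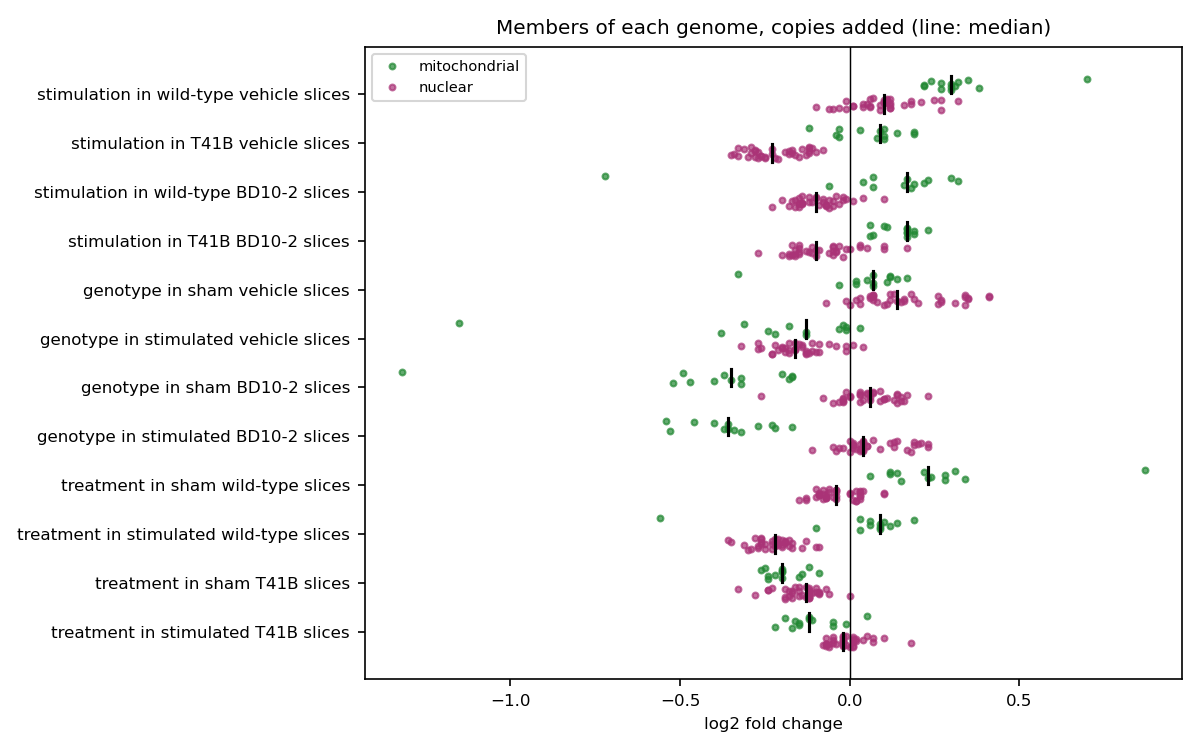
Log2 fold change of each of the 13 mitochondrial and 37 nuclear genes, copies added, in the 12 comparisons of 2 groups; each point is a gene and the line is the median. In the 4 stimulation comparisons the mitochondrial median lies above the nuclear one, at 0.30, 0.09, 0.17 and 0.17 against 0.10, -0.23, -0.10 and -0.10.

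Genes that serve the same machinery were counted from lists of the pathway. Of 41 other nuclear subunit genes tested, 0 rose and 5 fell with stimulation in vehicle-treated T41B mice, with all 41 log2 fold changes negative (median -0.28), and the count is close to the background of 9.83% of all genes lower. Among those 5 were Ndufs4 (-0.39), a complex I subunit, Cox7a2l (-0.36), a factor in respiratory supercomplexes, and the ATP synthase subunits Atp5j (-0.31) and Atp5l (-0.31). The block raised this count to 20 lower, against 14.8% of all genes. For the mean effect 7 of 41 fell, a smaller share than the 24.6% of all genes and so not a result about the list, and 14 with the block, against 26.3%. They were led by Ndufs4 (-0.25), Atp5l (-0.20), Ndufs5 (-0.19) and Ndufb3 (-0.18). These subunits, which are not among the 37, thus had a median close to that of the 37 members in the same slices.

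Assembly factors insert subunits and cofactors into the complexes. Of 38 tested, 13 fell and 0 rose in vehicle-treated T41B mice (median -0.31), against 9.83% of all genes lower. The lowest were Lyrm7 (-0.76), which helps insert the Rieske iron-sulfur protein into complex III, Sdhaf4 (-0.66), a complex II assembly factor, and Coa3 (-0.63) and Cox20 (-0.59), both needed for complex IV. In BD10-2-treated T41B mice 8 fell (5 with the block), against 9.52 and 10.4% of all genes lower, including Nubpl (-0.61), Lyrm7 (-0.56) and Sdhaf4 (-0.55), and Sco1, a copper carrier to complex IV, rose (0.47). For the mean effect 13 of 38 fell, against 24.6% of all genes, and Sco1 alone rose (0.25). Lyrm7 (-0.51), Sdhaf4 (-0.50), Sdhaf3 (-0.42) and Nubpl (-0.40) had the largest declines.

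The factors that transcribe, copy and process the mitochondrial genome were split: of 20 tested, 6 rose and 3 fell (5 with the block) for the mean stimulation effect, when 22.2% of all genes rose and 24.6% fell, so these counts are not a result about the list. Polg2, the accessory subunit of the mitochondrial DNA polymerase, rose by 0.49, the RNA-processing enzymes Pnpt1 and Elac2 rose by 0.37 and 0.32, and Tfb1m, a methyltransferase of the mitochondrial ribosomal RNA, fell by 0.64. Of 11 regulators of mitochondrial gene programs, 6 rose and 3 fell (7 and 3 with the block), against the same backgrounds. Pprc1, a coactivator of the PGC-1 family, rose by 0.66 (SE 0.04, edgeR adjusted p = 4.34e-13), the GABP subunit gene Gabpb1 rose by 0.45, and the nuclear receptor genes Esrrg and Ppara fell by 0.44 and 0.39. Ppargc1a, which encodes the coactivator PGC-1 alpha, was lower in T41B than wild-type slices by 0.25 in sham vehicle, 0.27 in stimulated vehicle and 0.30 in sham BD10-2 slices. Of 16 citric acid cycle genes, 4 fell for the mean effect, near the 24.6% of all genes and so not a result about the cycle, and 7 with the block, against 26.3%. The 4 were the enzyme genes Fh1 (-0.25), Idh3a (-0.23), Pdhb (-0.16) and Sucla2 (-0.13).

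Alternative isoforms of subunits and mitochondrial stress genes were measured as well. Of 7 isoform genes tested, 1 rose and 3 fell for the mean effect, again beside 22.2 and 24.6% of all genes. Atp5s fell by 0.24. The others averaged under 1 CPM and are named here after their values were seen: AA467197, a relative of Ndufa4, at 2.96, and Cox4i2 and Ndufa4l2 at -1.39 and -1.70. Acod1, the itaconate-producing enzyme of activated myeloid cells, rose by 6.23 and Sod2, the superoxide dismutase of the mitochondrial matrix, by 0.33. Ucp2, a carrier of the inner membrane, was higher in T41B than in wild-type slices in all 4 genotype comparisons, by 0.77 in stimulated vehicle to 1.61 in stimulated BD10-2 slices. With the block Ucp2 rose with stimulation by 0.37 in vehicle-treated wild-type mice (edgeR adjusted p = 0.0485) and fell by 0.41 in vehicle-treated T41B mice (adjusted p = 0.0145), but the difference between these responses did not pass adjustment (adjusted p = 0.139).

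Motifs of regulators of these genes were searched in the promoters of the 28 nuclear members matched in the RefSeq table used here (GRCm38.p6), over 250 bases before and 50 after the start. The NRF1 motif occurred on either strand in 5 of 28 (17.9%, against 4.6% of 32851 promoters), CCGGAAG of GABP and other ETS factors in 6 (21.4% against 8.86%), AAGATGG of YY1 in 4 (14.3% against 6.34%) and TNAAGGTCA of the ERR receptors in 1 (3.57% against 1.28%). The promoters of Atp5a1, Cox4i1, Cox6c, Cyc1, Ndufs1, Sdhc, Uqcrb, Uqcrc2 and Uqcrq were not analysed here. Any of the 4 was found in 13 promoters (46.4% against 19.1%). Among 39 promoters of the other nuclear subunit genes, 25 held any of the 4 and 12 the NRF1 motif, larger shares than among the members. In the members, matches of different motifs overlapped in 0 of the 28. Of the regulators named, Nrf1, Gabpa and Yy1, picked here for these motifs after their values were seen, rose with stimulation by 0.18, 0.18 and 0.17 for the mean effect, whereas of the ERR receptor genes Esrrg fell by 0.44 and Esrra was at 0.08 (edgeR adjusted p = 0.272). The following promoters contrast Sdha and Ndufa9, which fell, with Cox6a1, which was higher in most stimulated slices. Capitals mark the motif matches, and transcription starts after the first 250 bases. The Sdha window is chr13:74350191-74350490 (minus strand) with 3 NRF1 matches, the Ndufa9 window is chr6:126849095-126849394 (minus strand) with 1 YY1 match, and the Cox6a1 window is chr5:115348909-115349208 (minus strand) with 2 NRF1 matches and 1 GABP match.
Sdha: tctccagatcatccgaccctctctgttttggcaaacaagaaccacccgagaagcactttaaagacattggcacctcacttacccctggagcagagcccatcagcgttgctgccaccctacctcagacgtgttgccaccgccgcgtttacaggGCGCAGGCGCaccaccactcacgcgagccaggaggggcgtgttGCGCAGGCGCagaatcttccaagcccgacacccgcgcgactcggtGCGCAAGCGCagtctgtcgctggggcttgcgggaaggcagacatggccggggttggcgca
Ndufa9: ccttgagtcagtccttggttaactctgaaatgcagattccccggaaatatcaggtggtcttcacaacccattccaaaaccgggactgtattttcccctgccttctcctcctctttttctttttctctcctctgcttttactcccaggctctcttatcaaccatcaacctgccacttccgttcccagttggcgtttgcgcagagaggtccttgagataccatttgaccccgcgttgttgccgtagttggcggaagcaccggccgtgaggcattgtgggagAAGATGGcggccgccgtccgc
Cox6a1: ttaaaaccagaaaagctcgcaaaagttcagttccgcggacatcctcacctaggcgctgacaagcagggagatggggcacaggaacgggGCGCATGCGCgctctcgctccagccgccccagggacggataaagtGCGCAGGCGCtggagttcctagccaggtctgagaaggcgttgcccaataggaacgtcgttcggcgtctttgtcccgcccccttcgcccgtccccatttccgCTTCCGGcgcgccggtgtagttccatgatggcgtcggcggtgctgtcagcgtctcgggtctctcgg

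NRF1 letters occurred in the promoters of Atp5o, Cox6a1, Sdha, Sdhd and Uqcrc1. Of the promoters shown, that of Sdha belongs to a gene called lower and that of Cox6a1 to a gene not called. A match of letters is a description and was not tested as a binding site.

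Cell type markers moved with the same comparisons, and their part in the results above was not tested. Of 10 microglial markers, 9 were lower in stimulated slices for the mean effect. Their sum was 606 to 1138 CPM in sham and 338 to 497 CPM in stimulated slices of vehicle-treated T41B mice, and 278 to 367 against 126 to 207 CPM in wild-type mice. Of 9 neuronal markers, led by Camk2a, 6 were lower for the mean effect and 0 in vehicle-treated T41B mice (4 with the block), where their sum was 7957 to 8807 CPM in sham and 6864 to 8709 CPM in stimulated slices. Of 8 astrocyte markers, led by Slc1a2, 7 were higher for the mean effect, with sums of 7035 to 9468 against 9779 to 10935 CPM in vehicle-treated T41B mice. Oligodendrocyte markers, led by Mbp, gave 0 calls among 7 for the mean effect. In vehicle-treated T41B mice all 7 were negative with stimulation (median -0.27) and Mog was called lower (-0.65, edgeR adjusted p = 0.0397), whereas all 7 were positive in vehicle-treated wild-type mice (median 0.35). Their sum in the T41B animals went from 4715 to 8099 CPM in Mouse1510, from 8746 to 7543 in Mouse1551, from 9958 to 3383 in Mouse1553 and from 5771 to 5247 in Mouse1579, so only Mouse1553 had a large decline. Endothelial markers, led by Flt1, gave 1 higher and 2 lower among 5 for the mean effect. With the block in vehicle-treated T41B mice, Pecam1 (1.39) and Cldn5 (0.68) rose and Slco1a4 (-2.67) and Ly6c1 (-0.76) fell. All 9 choroid plexus markers, led by Enpp2, were higher in stimulated slices of vehicle-treated wild-type mice, where their sum was 191 to 1948 CPM against 138 to 169 CPM in sham slices. By mouse it was 1948, 1607, 191 and 228 CPM in stimulated slices of Mouse1509, Mouse1513, Mouse1522 and Mouse1524, beside within-mouse log2 differences of the mitochondrial sum of 0.58, 0.20, 0.15 and 0.21 in the same order. The stimulated slice of Mouse1524, with the highest nuclear sum, had the lowest endothelial sum of the 32 slices (19.5 CPM) and the highest oligodendrocyte sum of its group (8238 against 4716 to 6466 CPM). The sham slice of T41B Mouse1553, with the highest nuclear sum of its group (4457 CPM), had the lowest endothelial sum of its group (39.9 against 81.7 to 110 CPM) and the highest choroid plexus sum (849 against 142 to 369 CPM). Between genotypes, 9 of 10 microglial markers were higher in T41B sham vehicle slices.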

How the data were processed

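RNA from hippocampal slices was sequenced in 36 libraries from 18 mice. Reads were trimmed with cutadapt 1.8.1, aligned with STAR 2.7.6a to GRCm38.p6 (mm10) and quantified with RSEM 1.3.1, per the submitters' processing notes, which also name featureCounts 1.6 and SAMtools 1.11. The values are expected counts per gene as the authors deposited them, and 5.7% of cells are not whole. Which annotation release and strand option were used for counting is not given in the sources used here. RSEM divides reads that fit several genes by estimated probability, which bears on the mitochondrial genes with nuclear copies.

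Libraries with equal mouse and stimulation labels were added (4 cases) and counts rounded to whole numbers. Identifiers were matched to symbols for 55154 of 55421 genes. Genes were filtered with filterByExpr (minimum count 10), scaled by TMM (factors 0.91 to 1.06) and tested with edgeR 4.0.16 in R 4.3.3, with all 8 groups in 1 quasi-likelihood fit and Benjamini-Hochberg adjustment over the 19478 genes, for 17 comparisons. The test was checked on simulated counts. Within-mouse log2 differences used a pseudocount of 1 CPM. A near-identical copy had at least 95% identity over at least 100 aligned bases and 80% of its length. Sequences came from the GRCm38 genome, and promoters from RefSeq.

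The mouse numbers in the labels pair the slices: deviations from the group means correlated by 0.2 on average over 14 same-mouse pairs (12 over 0.1) and by -0.06 over 52 pairs of different mice. Alternatives were other scalings, no filter, fewer groups, batch or mouse terms, DESeq2 1.42.0 and leaving out each mouse. Adding the copies, alone and with the mouse block, and leaving out mice from that fit were added after seeing the data. The members and the gene lists were chosen with earlier results of these data known. Members called in a comparison are given in full, at most 8 per comparison by absolute log2 fold change, otherwise the highest and lowest per genome. Other lists are given as counts, with up to 4 called genes averaging at least 1 CPM, and marker lists by counts, sums and their most abundant gene, which is not reported here for 1 list.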

Additional observations from a re-analysis of the deposited data

Results flagged for a closer look

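Among 84 groups of 4 to 10 slices checked for a value far from the others, 5 held one, where chance gives about 1 in 20. In BD10-2-treated T41B stimulated slices, Mouse1563 had a mitochondrial sum with copies of 76713 CPM and a ratio to the nuclear sum of 26.8, both the highest of all slices. Among vehicle-treated T41B stimulated slices, Cox6c was low in Mouse1553 (72.1 CPM) and Uqcrb was high in Mouse1551 (23.3 CPM). Among vehicle-treated wild-type stimulated slices, Ndufb5 was high in Mouse1524 (41.4 CPM).

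Rows of the count table outside the 50 genes held a large part of the reads of members. Over all slices together, Gm28661 held 96.9% of the counts of mt-Co2 and its copy, Gm28437 held 90.1% with mt-Co3, Gm10925 held 76.6% with mt-Atp6 and Gm10053 held 50.6% with Cycs.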

How the results depend on the processing

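Of 626 counts of called members under alternatives, 559 stayed within 1.5 times the main count and 67 did not. The log2 fold changes of called members kept their direction in all 367 cases and lost the call in 71. With mouse as replicate block, the mitochondrial counts became 6 in vehicle wild-type, 5 in T41B BD10-2 and 10 in the mean stimulation comparison (9, 6 and 11 with copies added), and the nuclear counts 19 in vehicle T41B, 2 in T41B BD10-2 and 16 in the mean, with or without the copies; the replicate block changed no other count of members by over 1.5 times, and of single called genes only mt-Co2 and Uqcrb lost their call for the mean effect. For vehicle T41B stimulation, the nuclear count was 3 without a filter on low counts, 1 with only the compared groups fitted and 14 with a batch covariate. For T41B BD10-2 stimulation it was 2 with scaling by nuclear genes and with a batch covariate, and 1 with the first library of equal labels, with only the compared groups and with DESeq2. For the mean effect, the nuclear count was 2 without the filter, and the mitochondrial count 0 with the first library and with the copies added. For genotype in stimulated vehicle slices, the mitochondrial count was 1 with only the compared groups and the nuclear count 14 with a batch covariate, where the nuclear median went to -0.35. The sham vehicle median went to -0.07. The cause of these changes was not tested.

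Leaving out 1 mouse at a time without the block gave 0 mitochondrial calls in vehicle wild-type and in T41B BD10-2. In the mean stimulation comparison it gave 0 to 1. With the block and the copies, these mitochondrial counts were 0 to 8, 1 to 10 and 7 to 12 in the same order. Nuclear calls without the block were 0 in vehicle wild-type, 1 to 7 in vehicle T41B and 0 to 2 in T41B BD10-2. They were 3 to 13 in the mean stimulation comparison. With the block and the copies, these nuclear counts were 0 to 1, 6 to 18, 0 to 5 and 11 to 20. Without the block, the genotype comparisons gave 0 to 4 nuclear calls in sham vehicle, 0 to 2 in stimulated vehicle and 0 to 1 in sham BD10-2 slices. The unblocked nuclear count of the mean effect was 3 without Mouse1590 and 6 without Mouse1509, and the 4 nuclear calls between genotypes in sham vehicle slices appeared without Mouse1524. With 3 to 5 mice a group, the test recovered 18.5 to 36% of genes given a log2 change of 0.5 in the checks on simulated counts, depending on the comparison, so a missing call does not show that a gene did not change. In those checks 200 of 19478 genes, drawn at random, were changed, so the rates need not hold for the members.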
